A study of Mus musculus with 19 samples.

Results

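The comparison asks which transcripts responded differently when Sec24a, Sec24b and Sec24c were knocked down together than when Sec24b was knocked down alone, after each knockdown was set against its own scrambled siRNA. All cells were mouse embryonic fibroblasts whose Sec24d gene is knocked out, so the controls lack SEC24D as well. The 4 groups used all 19 of the 19 libraries of the series and were sampled 48 h after transfection, by the labels. They were 4 libraries with scrambled siRNA at 50 nM, 5 with siRNA against Sec24b (called the Sec24B knockdown), 5 with scrambled siRNA at 150 nM, and 5 with siRNAs directed at Sec24a, Sec24b and Sec24c at once (called the triple knockdown). For every gene the Sec24B effect (Sec24B knockdown minus 50 nM scrambled) was subtracted from the triple effect (triple knockdown minus 150 nM scrambled), on the scale of log2 of the normalised read count plus 1. The result is called the difference of effects. It equals the direct difference between the knockdowns minus the difference between the scrambled doses, so it subtracts all that differed between the scrambled groups. That difference is called the dose difference. Dose and any difference in culture or preparation between the scrambled groups cannot be told apart. A positive value means that the triple effect lay above the Sec24B effect, which can come from a rise in one or a fall in the other.

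SEC24 proteins select the cargo of COPII, a protein coat that buds transport vesicles from the endoplasmic reticulum (ER). Mammals have the paralogs SEC24A and SEC24B, which are close relatives, and SEC24C and SEC24D, which form the other pair. COPII carries collagens and other secreted proteins, membrane receptors, and the SCAP and SREBP proteins that switch on cholesterol synthesis once they reach the Golgi. When proteins accumulate in the ER, the unfolded protein response raises chaperones such as BiP, and its PERK arm feeds into the integrated stress response, in which the transcription factor ATF4 raises genes of amino acid supply. PERK is a kinase of the ER membrane, and the other kinases of the integrated stress response sense double-stranded RNA, missing amino acids or missing heme.

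Some features limit the groups as a model. Fibroblasts are described as a knockout line, with no statement that more than 1 clone was used, and nothing says that replicates were grown separately, in which case p-values would reflect only the spread among these libraries. Whether the 50 nM stated for SEC24 siRNAs is per siRNA or a total is not given, and the 150 nM control is matched to the triple knockdown only through dose and library name. Effects of loss of SEC24A and SEC24C, of the number of siRNAs and of an unmatched dose cannot be told apart. The libraries held 9101855 to 19709672 reads, so 1 read was worth 0.736 to 1.638 normalised counts. Of 8 fibroblast markers 7 were measured, and none of these was at 0 in any library. Their summed level was 313247 to 340504 in the triple knockdown and 393001 to 554899 in the other groups, and the part of this in the results was not tested. Values were scaled per library, so these sums describe a share of the reads. Neither cell number nor RNA per cell can be read from them. Of the markers of epithelium, endothelium, leukocytes, and muscle or nerve, 3 of 5, 3 of 5, 2 of 6 and 2 of 6 were measured, and each list summed to 15.0 to 308 in every library. Triple knockdown replicate 1 stood apart, with a residual SD of 0.332 on the log2 scale around its group mean, against 0.125 to 0.201 in the other 18 libraries. Replicate 5 was also apart from triple knockdown replicates 2 to 4, with a chi-square of 15.75 to 18.61 per degree of freedom between libraries, against 2.54 to 3.27 among those 3 and 23.7 to 45.8 for replicate 1 against the other 4.

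Knockdown of the targets differed between the arms as labelled for Sec24c. Sec24c (ENSMUSG00000039367, GRCm38 chromosome 14, 20674308 to 20694852) read 2525, 2602, 2720.1 and 2691.5 normalised counts with 50 nM scrambled siRNA and 2498.5, 2774, 2866, 2532 and 2499 in the Sec24B knockdown. It read 2705, 2781, 2951, 2736 and 2800.1 with 150 nM scrambled siRNA and 775, 829, 834, 857.5 and 752 in the triple knockdown. Every triple knockdown library lay below every other library, and the difference of effects was -1.79 ± 0.08 (log2 ± SE of the fit; limma with Benjamini-Hochberg adjustment over all genes, adjusted p = 1.16e-13). All adjusted p-values below come from this same limma fit.

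Sec24a (ENSMUSG00000036391, chromosome 11, 51692264 to 51763634) read 839, 886, 899 and 720.4 with 50 nM scrambled siRNA and 652, 774, 733, 745 and 762 in the Sec24B knockdown. It stood at 888, 732, 782, 787 and 812 with 150 nM scrambled siRNA and 299, 579.9, 583, 572 and 403 in the triple knockdown. The triple knockdown libraries were again the lowest, but they spread widely, with replicates 1 and 5 far below the rest. The difference of effects was -0.57 ± 0.19 (adjusted p = 0.0376), and the call did not hold with each library left out in turn.

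Sec24b (ENSMUSG00000001052, chromosome 3, 129982759 to 130061553) was targeted in both arms. It read 1067, 1126, 1217 and 1046 in the 50 nM control and 1253, 1219, 1256, 1159 and 1223 in the 150 nM control. Levels were 454, 487, 498, 485 and 473 in the Sec24B knockdown and 369, 531, 606, 603 and 436 in the triple knockdown, where the knockdown groups overlapped each other and neither overlapped its control. Its difference of effects was -0.07 ± 0.14 (adjusted p = 0.788), so a difference in Sec24b depletion was not detected. Sec24d (ENSMUSG00000039234, chromosome 3, 123267455 to 123365641), the knocked-out gene, was still counted in all libraries and did not pass (-0.18 ± 0.23, adjusted p = 0.679). Its level was 223 in triple knockdown replicate 1 and 353 to 563 in the other 18 libraries. The deleted stretch is not given in the labels, so these counts do not check the knockout.

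The difference of effects passed an adjusted p of 0.05 in 3107 of 19635 genes (15.8%). Of these, 1461 were higher (7.44% of genes tested) and 1646 lower (8.38%), and 494 differed by at least 1 on the log2 scale (197 higher, 297 lower). The median over all genes was -0.007, and 2232 of the calls held with each of the 19 libraries left out in turn. For comparison, the triple effect alone passed in 6680 genes (34.0%; 16.8% higher, 17.2% lower) and the Sec24B effect in 2868 (14.6%; 7.53% higher, 7.08% lower). The scrambled doses differed in 1737 genes (8.85%; 4.75% higher and 4.10% lower at 150 nM). The direct difference between the knockdowns, with no correction for dose, passed in 6280 genes (32.0%; 15.8% higher, 16.2% lower). The dose count was the least stable of these, from 902 without 50 nM scrambled replicate 1 to 2684 without triple knockdown replicate 1. It was 920 and 1042 without 50 nM scrambled replicates 2 and 3, and 1140 without 150 nM scrambled replicate 3.

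The dose correction decided many calls. Of the 6280 genes that differed directly between the knockdowns, 3674 were not called once the dose difference was taken out. Of the 3107 called genes, 2606 also passed directly, 2603 of them in the same direction. In 239 the dose difference passed and the direct difference did not, and in 262 neither did. In 522 called genes (16.8%) the dose difference was larger in size than the direct one, so these calls rest mainly on the scrambled controls.

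Most called genes passed in the triple effect and not in the Sec24B effect, with 979 higher and 972 lower. Another 115 higher and 145 lower genes passed in both effects in the same direction. In 264 genes the knockdowns acted in opposite directions, each against its own control: 97 rose in the triple knockdown and fell in the Sec24B knockdown, and 167 did the reverse. In 196 higher and 268 lower genes the Sec24B effect alone passed. The other 74 higher and 94 lower genes passed in neither. Of the 183 called genes named here, 82 passed in the triple effect alone, 31 in the Sec24B effect alone, 32 in both in the same direction, 31 in both in opposite directions and 7 in neither.

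**Figure D1:**
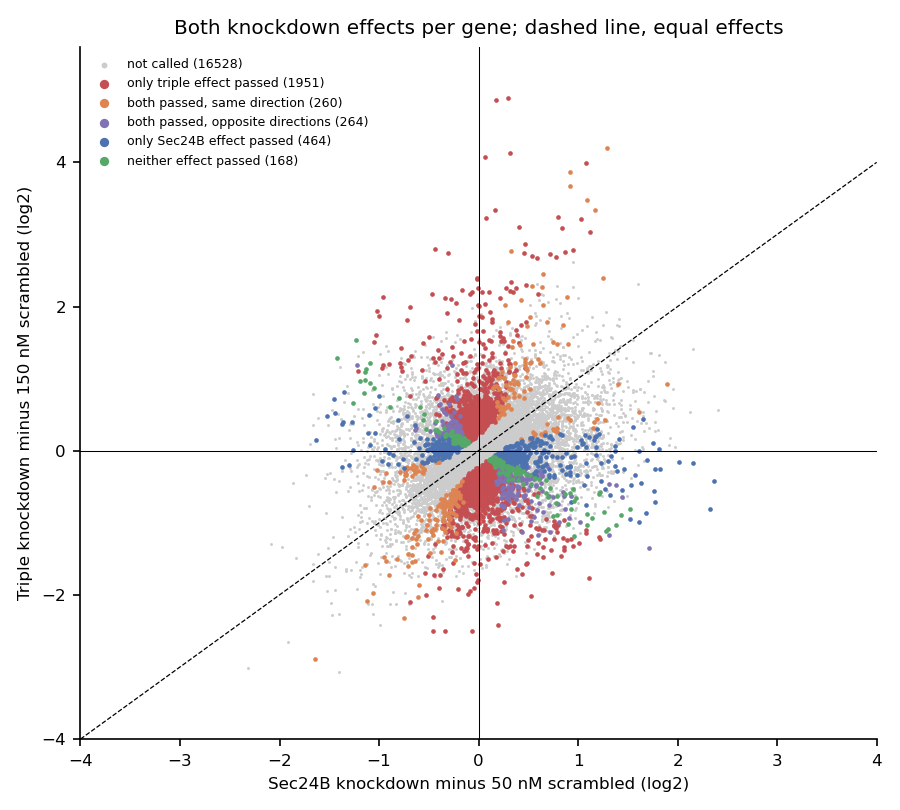
Each point is 1 of 19635 genes, with the Sec24B effect on the x axis and the triple effect on the y axis, both log2; colours mark the 3107 genes called by the difference of effects, by which single effects passed. Called genes lie away from the dashed line of equal effects, and the 1951 genes in which only the triple effect passed spread mainly along the y axis.

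The gene lists that stood highest concerned amino acid supply and the integrated stress response, and those that stood lowest cholesterol synthesis and mitosis. The plot of list medians gives both effects and their difference for all 34 lists. Counts of list members called by the difference of effects stand beside 7.44% of all genes called higher and 8.38% called lower. Counts from the other comparisons stand beside other shares of all genes. These were 16.8% higher and 17.2% lower for the triple effect and 7.53% and 7.08% for the Sec24B effect. For the scrambled doses they were 4.75% and 4.10%, and for the direct difference 15.8% and 16.2%. In the lists of amino acid synthesis, tRNA synthetases and cholesterol synthesis the Sec24B median lay within 0.17 of 0. The triple median, against its own control, carried the difference. For amino acid supply and the integrated stress response, the scrambled doses supplied part of the difference. The median direct and dose differences were 0.61 and -0.31 for amino acid synthesis and 0.46 and -0.14 for tRNA synthetases. They were 0.43 and -0.24 for amino acid transporters and 0.65 and -0.18 for stress response factors. For cholesterol synthesis they were -1.12 and -0.15, so the dose correction made that fall smaller. In the mitosis list the single effects had medians of opposite sign.

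**Figure D2:**
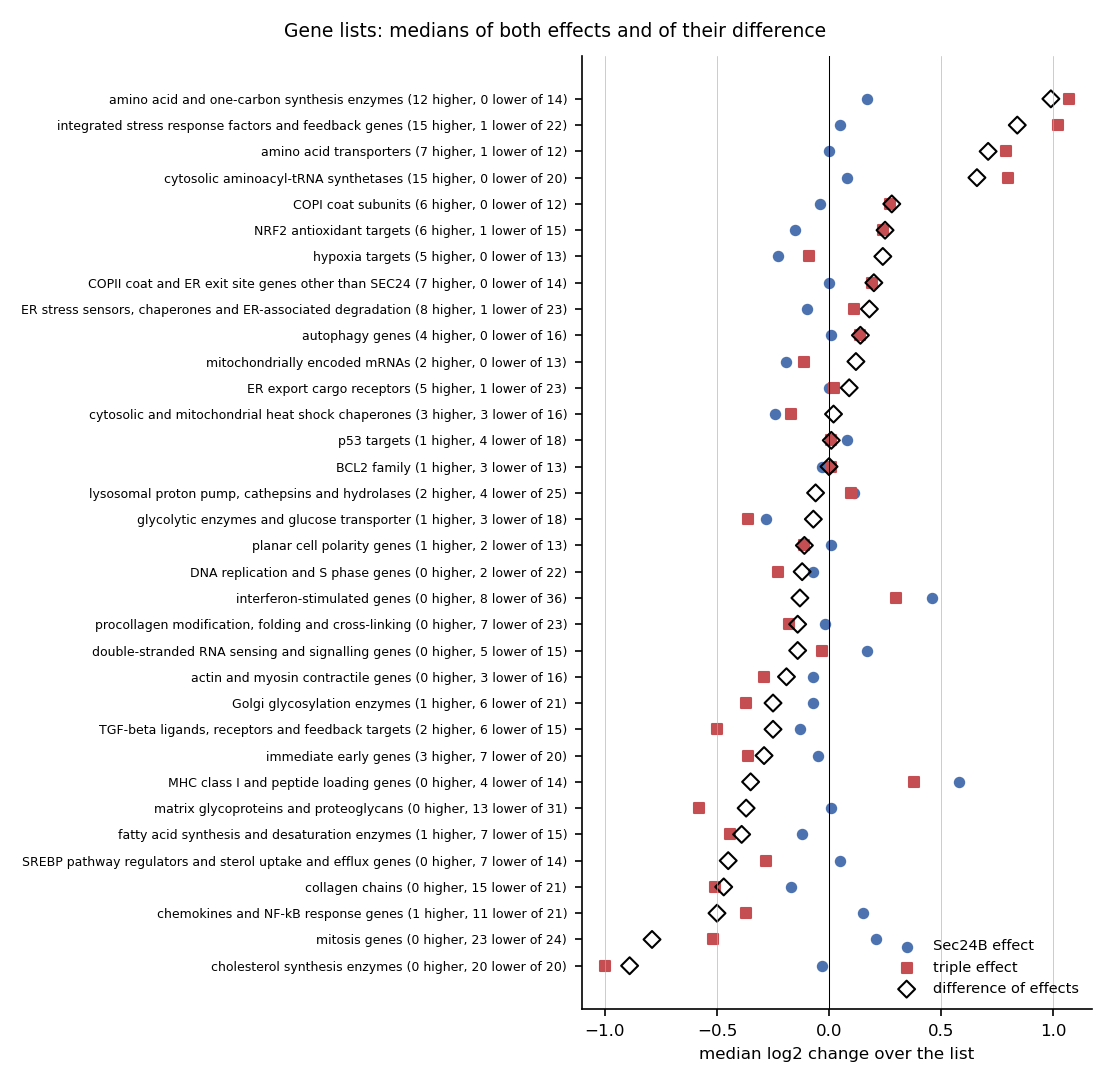
Median log2 change over each of 34 gene lists (y axis, with the number of members called higher and lower of those tested) for the Sec24B effect (circles), the triple effect (squares) and their difference (diamonds). Amino acid synthesis is highest at 0.99 and cholesterol synthesis lowest at -0.89, while the median over all genes is -0.007.

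Genes of the integrated stress response rose beyond the Sec24B effect. Of 22 factors and feedback genes, 15 were higher and 1 lower by the difference of effects, with a median of 0.84, beside 7.44% higher, 8.38% lower and a median of -0.007 over all genes. Their median was 1.02 for the triple effect and 0.05 for the Sec24B effect. Chac1 (ENSMUSG00000027313, chromosome 2, 119351229 to 119354381) encodes an enzyme that breaks down glutathione and is a known target of the response. With 50 nM scrambled siRNA it read 630.2, 671, 637 and 764, and in the Sec24B knockdown 835, 780, 862, 792 and 785. With 150 nM scrambled siRNA it read 417, 499.6, 487, 382 and 419.5, and in the triple knockdown 2112, 1544, 1677, 1634.5 and 1983. No group overlapped another: the triple knockdown was highest, and the 150 nM control was lower than the 50 nM control (dose difference -0.62 ± 0.09). The difference of effects was 1.75 ± 0.12 (adjusted p = 6.24e-10), of which the direct difference was 1.13 and the rest came from the scrambled doses.

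Trib3, a pseudokinase that feeds back on the response, had a difference of 1.75 ± 0.14 (adjusted p = 5.19e-09), and Atf3, a transcription factor induced by ATF4, one of 1.37 ± 0.13 (adjusted p = 3.25e-08). Atf4 itself read 9832 to 13131 in the triple knockdown and 5092 to 6932 elsewhere, with a difference of 0.91 ± 0.10 (adjusted p = 2.58e-07). Its highest value was in triple knockdown replicate 1. Atf5, a relative of ATF4, rose in both arms (0.85 and 1.74), with a difference of 0.90 ± 0.14 (adjusted p = 4.99e-05) to which the scrambled doses (-0.45) gave about as much as the direct difference (0.44). The member that was lower, Eif2ak2 (-0.56 ± 0.11, adjusted p = 0.000916), encodes PKR, the kinase of the pathway that senses double-stranded RNA and is itself raised by interferon.

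Enzymes that make amino acids and one-carbon units moved together. All 14 had a positive difference, from 0.29 to 1.90, and 12 passed, with a median of 0.99 (1.07 in the triple effect, 0.17 in the Sec24B effect). Gpt2, the mitochondrial alanine transaminase, read 895, 876.5, 791 and 831 with 50 nM scrambled siRNA and 894, 921, 969.8, 928 and 952.5 in the Sec24B knockdown. It read 618, 655, 668, 501 and 614 with 150 nM scrambled siRNA and 2304, 2060.2, 2013, 2043 and 2120.3 in the triple knockdown. The triple knockdown stood above all other libraries and the 150 nM control below them, while the 50 nM control and the Sec24B knockdown overlapped. The difference was 1.65 ± 0.10 (adjusted p = 3.07e-11). Cth, which makes cysteine from cystathionine, had a difference of 1.90 ± 0.16 (adjusted p = 1.34e-08), Mthfd2, a mitochondrial folate enzyme, of 0.94 ± 0.08 (adjusted p = 2.67e-08), and Aldh18a1, which starts proline synthesis, of 0.72 ± 0.07 (adjusted p = 4.27e-08).

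Of 12 amino acid transporters 7 were higher and 1 lower (median 0.71; 0.79 in the triple effect and 0.00 in the Sec24B effect). Slc7a11, the cystine importer, read 332.5, 299.5, 318 and 233 in the 50 nM control and 268, 317, 309.6, 323 and 288 in the Sec24B knockdown. It read 359.5, 292, 294, 317 and 278 with 150 nM scrambled siRNA and 777, 1349, 1271, 1264 and 1036 in the triple knockdown. The first 3 groups overlapped and every triple knockdown library lay above them, though replicate 1 was the lowest of the 5 (1.83 ± 0.17, adjusted p = 5.9e-08). The glycine transporter Slc6a9 (1.48 ± 0.09, adjusted p = 5.3e-11) and the neutral amino acid transporter Slc1a4 (0.94 ± 0.08, adjusted p = 7.94e-09) were also higher. Slc7a5, the leucine importer LAT1, rose in both arms, by 0.75 and 1.51, and the difference was 0.76 ± 0.10 (adjusted p = 4.83e-06). The lower member was Slc7a6, an exchanger of cationic and neutral amino acids (-0.25 ± 0.07, adjusted p = 0.0214).

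Cytosolic aminoacyl-tRNA synthetases, which load amino acids onto tRNA, were higher in 15 of 20 and lower in 0 (median 0.66; 0.80 in the triple effect, 0.08 in the Sec24B effect). The tryptophan enzyme Wars read 1843, 1817, 1786 and 1957 with 50 nM scrambled siRNA and 1985, 2061, 2105, 1914 and 2069 in the Sec24B knockdown. It read 1668, 1733, 1778, 1645 and 1671 with 150 nM scrambled siRNA and 4379, 3983.5, 4114, 4164 and 4252.5 in the triple knockdown. Triple knockdown libraries lay within 3984 to 4379 and all others within 1645 to 2105, with a difference of 1.17 ± 0.07 (adjusted p = 3.61e-11). The enzymes for leucine (Lars, 0.87), threonine (Tars, 0.84) and asparagine (Nars, 0.91) had similar values, with adjusted p-values of 8.66e-09, 8.74e-08 and 9.48e-08. Xpot, which exports tRNA from the nucleus, rose in the triple knockdown (0.76) and fell in the Sec24B knockdown (-0.23), and the difference was 0.99 ± 0.09 (adjusted p = 6.55e-08).

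ATF4 binds a composite element found in the promoters of many of these genes, and 2 promoters that hold a match to it are shown as examples. They are those of Chac1 and of Herpud1, which is described below with the ER genes. The sequences are RefSeq promoter windows in GRCm38.p6, from 250 bases before to 50 after the gene start, 5′ to 3′ on the gene's strand. Capitals mark the match to TGATGNAA (searched on both strands), which in both lies on the opposite strand and begins 193 and 112 bases before the start. The Chac1 window is chr2:119350992-119351291 on the + strand and the Herpud1 window is chr8:94386179-94386478 on the + strand.
Chac1: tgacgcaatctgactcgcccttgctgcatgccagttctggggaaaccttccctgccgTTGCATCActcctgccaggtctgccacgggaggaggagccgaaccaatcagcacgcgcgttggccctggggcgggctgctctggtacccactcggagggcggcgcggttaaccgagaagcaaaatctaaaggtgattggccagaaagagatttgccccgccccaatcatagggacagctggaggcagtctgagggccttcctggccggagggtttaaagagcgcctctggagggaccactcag
Herpud1: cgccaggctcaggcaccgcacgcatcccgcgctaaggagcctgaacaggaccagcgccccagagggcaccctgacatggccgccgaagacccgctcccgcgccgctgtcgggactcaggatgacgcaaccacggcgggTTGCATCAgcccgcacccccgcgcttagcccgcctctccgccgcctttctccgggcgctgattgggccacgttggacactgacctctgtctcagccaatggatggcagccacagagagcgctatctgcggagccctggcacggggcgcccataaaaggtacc
Among listed genes with a RefSeq window, a match was found in 6 of 20 stress response factors (30.0%), 3 of 12 synthesis enzymes (25.0%), 2 of 8 transporters (25.0%) and 5 of 13 synthetases (38.5%). Of the ER genes described below, 1 of 19 with a window held one (5.26%). Of all 27025 genes with a window 4.51% held one. A match describes letters, and binding was not measured here.

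ER chaperones and ER-associated degradation genes were divided. Of 23 tested, 8 were higher and 1 lower (median 0.18; 0.11 in the triple effect and -0.10 in the Sec24B effect). Without triple knockdown replicate 1 the counts were 10 higher and 4 lower. Herpud1 (ENSMUSG00000031770, chromosome 8, 94386438 to 94395377), which helps to clear misfolded ER proteins, read 1377, 1359, 1347 and 1333 with 50 nM scrambled siRNA and 1741, 1733, 1714, 1657 and 1740.4 in the Sec24B knockdown. It read 1079.5, 1073, 941, 837 and 952 with 150 nM scrambled siRNA and 3414, 2623, 2642, 2531 and 2861 in the triple knockdown. The order was 150 nM control, 50 nM control, Sec24B knockdown, triple knockdown, with no overlap between neighbours. The difference of effects was 1.18 ± 0.11 (adjusted p = 2.38e-08).

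Hspa5 (ENSMUSG00000026864, chromosome 2, 34771970 to 34777547) encodes BiP, the main ER chaperone. It read 6467, 6439, 6203 and 6082 with 50 nM scrambled siRNA, 6814, 6630.2, 6666, 6920 and 6693.5 in the Sec24B knockdown and 6289, 6092, 6334, 7041 and 6607 with 150 nM scrambled siRNA. In the triple knockdown it read 18612, 12565, 12819.6, 12061.5 and 13043. Replicate 1 stood far above the other 4, which still lay well above every library of the other groups (0.98 ± 0.12, adjusted p = 2.52e-06). Xbp1, a transcription factor of the unfolded protein response (0.71 ± 0.10, adjusted p = 1.21e-05), and Derl1, part of the channel for ER-associated degradation (0.50 ± 0.08, adjusted p = 9.65e-05), were higher. Dnajb11, a co-chaperone of BiP, went the other way: it fell in both arms (-0.18 and -0.66) and by more in the triple knockdown (-0.48 ± 0.08, adjusted p = 0.000101).

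The Hspa5 promoter is shown because it holds the ER stress response element. Capitals mark the match to CCAAT, 9 bases of any kind and CCACG on the gene's strand, beginning 65 bases before the start, in chr2:34771840-34772139 on the + strand (RefSeq, GRCm38.p6).
Hspa5: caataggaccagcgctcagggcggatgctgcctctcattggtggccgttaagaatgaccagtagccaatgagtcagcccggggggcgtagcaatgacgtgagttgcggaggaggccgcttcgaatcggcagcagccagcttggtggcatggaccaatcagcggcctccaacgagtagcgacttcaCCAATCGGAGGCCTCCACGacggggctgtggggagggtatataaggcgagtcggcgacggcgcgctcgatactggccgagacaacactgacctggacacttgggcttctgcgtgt
Such a match was found in 8 of 19 listed ER genes with a window (42.1%) and in 0.137% of all genes with one. The shorter CCAAT, which is part of that element, was in 17 of 19 of these ER genes (89.5%) and 41.1% of all genes. It was also in 93.3% of cholesterol synthesis and 90.9% of mitosis genes with a window, so it was not particular to ER genes. A sterol element, TCACNCCAC, was searched too. It was found in 1 of 15 cholesterol synthesis genes (6.67%), 0 of 11 sterol regulators and carriers and 1.44% of all genes.

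Part of the vesicle coat genes stood higher. Of 14 COPII and ER exit site genes other than SEC24, 7 were higher and 0 lower, with a median of 0.20. With each library left out in turn, 5 of the 7 calls held. Sar1a, a GTPase that starts COPII assembly, read 4149, 4194, 4117 and 3902 in the 50 nM control and 3610.1, 3424, 3222, 3496 and 3298 in the Sec24B knockdown. It read 4135, 3884, 3861, 3958 and 3909.7 in the 150 nM control and 4845, 4537, 4452, 4216 and 4283 in the triple knockdown. Sec24B knockdown libraries lay below all others and triple knockdown libraries above all others, so the arms moved in opposite directions (-0.26 ± 0.05 and 0.18 ± 0.05). The difference was 0.44 ± 0.07 (adjusted p = 0.000147). Its paralog Sar1b (0.57 ± 0.12, adjusted p = 0.00141), Mia2, which organises ER exit sites (0.42 ± 0.09, adjusted p = 0.00168), and the outer coat subunit Sec31a (0.32 ± 0.07, adjusted p = 0.00418) were higher too.

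The COPI coat, which returns vesicles from the Golgi, had 6 of 12 members higher and 0 lower (median 0.28). Here 5 of the 6 calls held with each library left out. The coat subunits Copb2 (0.52 ± 0.07, adjusted p = 1.47e-05), Copb1 (0.41 ± 0.08, adjusted p = 0.000994) and Copa (0.38 ± 0.08, adjusted p = 0.00258) and the GTPase Arf4 (0.43 ± 0.08, adjusted p = 0.00037) were among them. Cargo receptors of ER export were higher in 5 and lower in 1 of 23, with a median of 0.09, beside 7.44% higher and 8.38% lower over all genes. Without 50 nM scrambled replicate 1 only 3 were higher, and without triple knockdown replicate 1 there were 2 lower. Kdelr2, which retrieves escaped ER proteins, read 2221, 2211, 2294 and 2430.5 in the 50 nM control and 1895, 1653, 1794, 1582 and 1642 in the Sec24B knockdown. It read 2188, 2278, 2102, 2135 and 2297 in the 150 nM control and 3094, 2335, 2283, 2443 and 2705 in the triple knockdown. The Sec24B knockdown was below all other groups, while the triple knockdown overlapped its control by 1 library (0.64 ± 0.10, adjusted p = 8.87e-05). Tmed5, Cnih1 and Tmed7, which escort cargo into COPII vesicles, fell in the Sec24B knockdown (-0.63, -0.30 and -0.29) and did not pass in the triple knockdown (-0.11, 0.16 and 0.01). Their differences were 0.52 ± 0.13, 0.46 ± 0.10 and 0.30 ± 0.10 (adjusted p = 0.00539, 0.00289 and 0.0391). Tmed2 was also higher (0.28 ± 0.08, adjusted p = 0.018); the calls on Tmed2 and Tmed7 did not hold with each library left out. Cnih2, a relative of Cnih1, was the lower member (-1.47 ± 0.28, adjusted p = 0.000519).

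Cholesterol synthesis genes fell in the triple knockdown, while their median hardly moved in the Sec24B knockdown. All 20 enzymes were lower by the difference of effects, from -2.43 to -0.30. Their median was -0.89, with -1.0 for the triple effect and -0.03 for the Sec24B effect, in which 2 rose and 7 fell. Hmgcs1, which makes HMG-CoA, read 2279.5, 2593.5, 2461.5 and 2407 with 50 nM scrambled siRNA and 2292, 2377.5, 2388, 2365 and 2676 in the Sec24B knockdown. It read 2063, 1908, 1810, 1963 and 2032 with 150 nM scrambled siRNA and 912, 758, 696, 831 and 711 in the triple knockdown. The 150 nM control already lay below the 50 nM control (-0.32 ± 0.07), and the triple knockdown lay below both without overlap. The difference was -1.32 ± 0.10 (adjusted p = 1.48e-09), smaller than the direct difference of -1.63.

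Hsd17b7, an enzyme of the later steps, fell in both arms. It read 375, 476, 402 and 354 with 50 nM scrambled siRNA, 241, 259, 240.5, 286 and 284 in the Sec24B knockdown, 385.5, 323, 381, 351.5 and 342 with 150 nM scrambled siRNA and 85.5, 89.0, 73.9, 109 and 78.8 in the triple knockdown. The Sec24B effect was -0.61 ± 0.11 and the triple effect -2.03 ± 0.10, and the difference was -1.42 ± 0.15 (adjusted p = 1.96e-07). Acat2, which starts the pathway by joining acetyl-CoA units (-0.79 ± 0.08, adjusted p = 2.16e-07), also fell in both arms.

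Regulators of the pathway and carriers of sterols were lower in 7 and higher in 0 of 14 (median -0.45); without 150 nM scrambled replicate 3 or triple knockdown replicate 3, 1 was higher. Insig1 (ENSMUSG00000045294, chromosome 5, 28071363 to 28078662), which holds SCAP in the ER, read 1279.9, 1402, 1322 and 1422 in the 50 nM control and 1461, 1547, 1587, 1594 and 1919 in the Sec24B knockdown, and 1379.5, 1345, 1195, 1325 and 1409 in the 150 nM control and 699.5, 693, 598, 681 and 739 in the triple knockdown. The knockdowns moved it in opposite directions (0.25 and -0.96), with a difference of -1.22 ± 0.10 (adjusted p = 7.94e-09). Srebf2, the transcription factor of the pathway (-1.03 ± 0.09, adjusted p = 3.17e-08), Stard4, a sterol carrier (-1.03 ± 0.12, adjusted p = 1.56e-06), and Abca1, the cholesterol exporter (-1.81 ± 0.41, adjusted p = 0.00344), were lower. Abca1 is known as a target of LXR, which is active when sterols are high, whereas Srebf2 is a target of SREBP.

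Fatty acid synthesis and desaturation followed, with 7 lower and 1 higher of 15 (median -0.39). Without 50 nM scrambled replicate 1, triple knockdown replicate 1 or triple knockdown replicate 5, 2 were higher. The desaturase Scd1 read 1084, 1108, 1061 and 1000.3 with 50 nM scrambled siRNA, 942, 964, 1001, 928 and 1075 in the Sec24B knockdown, 1141, 1207, 1084, 1107 and 1116 with 150 nM scrambled siRNA and 336, 534, 459, 472.5 and 430.2 in the triple knockdown. Only the triple knockdown was clear of all other groups (-1.24 ± 0.12, adjusted p = 7.77e-08). Scd2 (-0.74 ± 0.10, adjusted p = 6e-06), the acyl-CoA synthetase Acsl3 (-0.74 ± 0.11, adjusted p = 3.19e-05) and the desaturase Fads2 (-0.49 ± 0.07, adjusted p = 5.14e-05) were lower, and malic enzyme Me1, which supplies NADPH, was higher (0.31 ± 0.07, adjusted p = 0.00475).

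**Figure D3:**
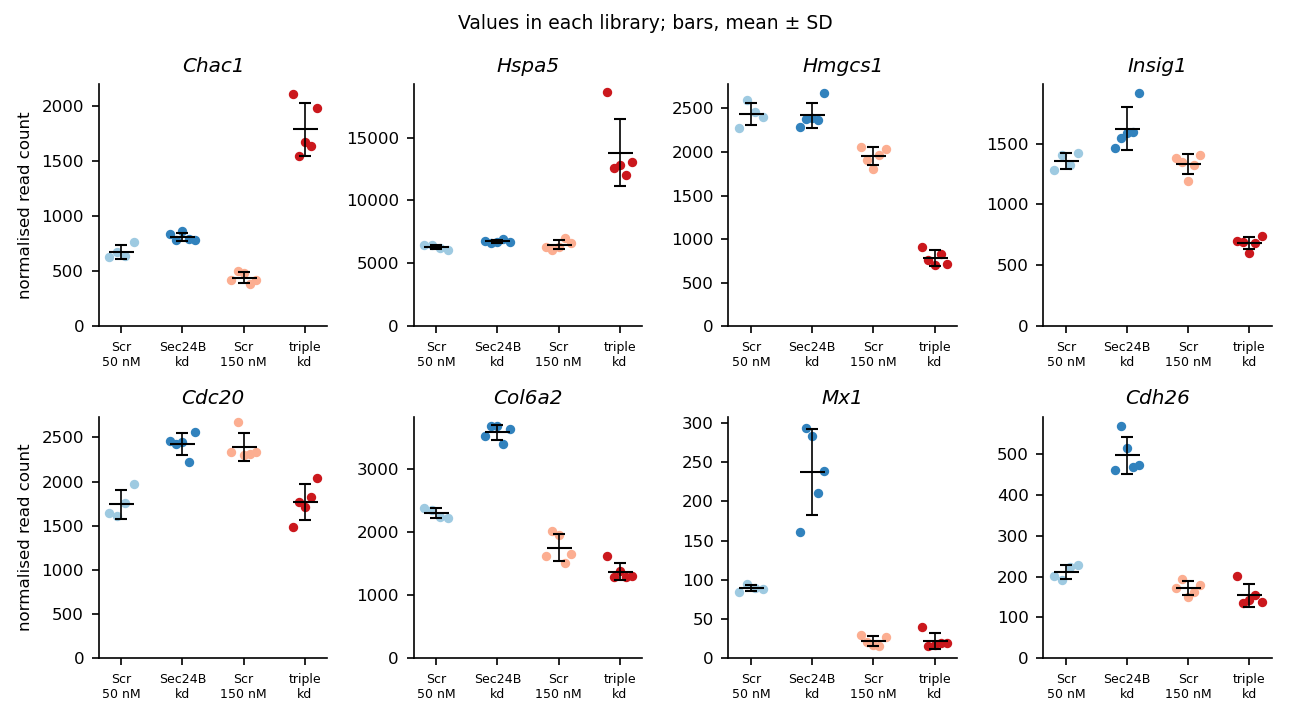
Normalised read counts (y axis, linear, from 0) of 8 genes in each library of the 4 groups; points are libraries and bars the mean ± SD over 4 libraries of the 50 nM control and 5 of each other group. Chac1 and Hspa5 are highest and Hmgcs1 and Insig1 lowest in the triple knockdown, Insig1, Cdc20 and Col6a2 move apart in the knockdowns, and Mx1 and Cdh26 are highest in the Sec24B knockdown.

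Mitosis genes fell in the triple knockdown, and part of them rose in the Sec24B knockdown. Of 24 tested, 23 were lower by the difference of effects and 0 higher, from -1.04 to -0.29, with a median of -0.79. In the triple knockdown 23 fell (median -0.52), and in the Sec24B knockdown 11 rose (median 0.21). The 150 nM control lay above the 50 nM control by a median of 0.20, and the median direct difference between the knockdowns was -0.53. Cdc20 (ENSMUSG00000006398, chromosome 4, 118432901 to 118437352), the activator of the anaphase-promoting complex, read 1639.6, 1609.6, 1757 and 1969.9 with 50 nM scrambled siRNA and 2458, 2419, 2449, 2225 and 2559 in the Sec24B knockdown. It read 2333, 2673, 2302, 2306 and 2330.2 with 150 nM scrambled siRNA and 1485, 1763, 1708, 1826 and 2044 in the triple knockdown. Each knockdown was clear of its own control, yet the triple knockdown overlapped the 50 nM control and the Sec24B knockdown overlapped the 150 nM control. The difference of effects was -0.92 ± 0.11 (adjusted p = 1.05e-06), and the dose difference was 0.46 ± 0.08.

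Aurka, a kinase of the spindle poles, also rose in the Sec24B knockdown and fell in the triple knockdown. It read 1308, 1286, 1265 and 1394 in the 50 nM control and 1692, 1595, 1545, 1583 and 1623 in the Sec24B knockdown, and 1559, 1771, 1648, 1581 and 1633 in the 150 nM control and 978, 1127, 1109, 1187 and 1159 in the triple knockdown (-0.85 ± 0.08, adjusted p = 6.17e-08). Here the triple knockdown lay below all other libraries. The centromere histone Cenpa (-0.83 ± 0.10, adjusted p = 2.61e-06) and the kinesin Kif20a (-0.83 ± 0.10, adjusted p = 3.92e-06) also rose in one arm and fell in the other. Among DNA replication genes 2 of 22 were lower and 0 higher (median -0.12), a share near the 8.38% of all genes called lower. These were the ribonucleotide reductase subunits Rrm2 (-0.56 ± 0.08, adjusted p = 1.21e-05) and Rrm1 (-0.29 ± 0.07, adjusted p = 0.00486). Triple knockdown replicate 1 held the least Rrm2, 2045 against 2410 to 2443 in the other 4. Without triple knockdown replicates 1 and 5 the number of lower replication genes was 6.

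Many mitotic promoters hold a short element, TTTGAA, through which they are repressed outside mitosis. The Cdc20 window is shown with its match in capitals, on the gene's strand and beginning 18 bases before the start, in chr4:118437294-118437593 on the - strand (RefSeq, GRCm38.p6).
Cdc20: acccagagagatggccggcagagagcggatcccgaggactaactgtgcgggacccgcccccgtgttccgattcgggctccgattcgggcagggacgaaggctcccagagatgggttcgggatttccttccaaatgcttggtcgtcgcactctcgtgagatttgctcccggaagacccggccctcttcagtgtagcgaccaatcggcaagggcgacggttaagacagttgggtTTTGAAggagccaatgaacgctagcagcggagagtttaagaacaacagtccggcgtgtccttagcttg
The element was found on either strand in 16 of 22 mitosis genes with a window (72.7%) and in 20.2% of all genes with one. It is short enough to occur often without being a site.

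Genes of the extracellular matrix fell in the triple knockdown relative to the Sec24B effect. Of 21 collagen chains 15 were lower and 0 higher (median -0.47; -0.51 in the triple effect and -0.17 in the Sec24B effect, where 5 rose and 6 fell). Col6a2, a chain of the beaded-filament collagen VI, read 2382, 2355, 2244 and 2228.5 with 50 nM scrambled siRNA and 3534, 3679, 3684, 3393 and 3639 in the Sec24B knockdown. It read 1626.5, 2016, 1958, 1518 and 1658 with 150 nM scrambled siRNA and 1617.5, 1284, 1380.4, 1288 and 1311 in the triple knockdown. The Sec24B knockdown was far above the other groups, and the triple knockdown overlapped its control through replicate 1 alone. The difference was -0.99 ± 0.11 (adjusted p = 3.7e-07).

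Its partner chain Col6a1 rose by 0.48 in the Sec24B knockdown and fell by 0.39 in the triple knockdown (-0.87 ± 0.09, adjusted p = 1.4e-07). Col3a1, a fibril-forming chain, read 8141 to 8859 in the Sec24B knockdown, 3105 to 3444 in the triple knockdown, and 5655 to 7586 in the controls together (-1.23 ± 0.10, adjusted p = 4.87e-09). Col8a1 was lower as well (-0.57 ± 0.10, adjusted p = 0.000175).

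Other matrix glycoproteins and proteoglycans were lower in 13 and higher in 0 of 31 (median -0.37). Thbs2, a matricellular thrombospondin, read 878, 902, 945 and 838.5 with 50 nM scrambled siRNA and 965, 1068.5, 1101, 1075 and 1042 in the Sec24B knockdown. It read 1193, 1246.5, 1275, 1189 and 1205.5 with 150 nM scrambled siRNA and 438, 611, 641, 669.9 and 612 in the triple knockdown, where replicate 1 was the lowest. The triple knockdown lay below every other library although the 150 nM control was the highest group (-1.29 ± 0.12, adjusted p = 3.17e-08). The basement membrane protein Nid2 (-0.77 ± 0.09, adjusted p = 2.34e-06), the microfibril protein Ltbp2 (-0.96 ± 0.12, adjusted p = 4.71e-06) and the elastic fibre protein Fbln1 (-0.54 ± 0.10, adjusted p = 0.000346) were lower. Enzymes that modify or cross-link procollagen were lower in 7 of 23 (median -0.14), beside 8.38% over all genes. They included the prolyl hydroxylase subunit P4ha3 (-0.89 ± 0.09, adjusted p = 2.79e-07), the cross-linking oxidases Loxl3 (-0.57 ± 0.08, adjusted p = 2.46e-05) and Loxl2 (-0.55 ± 0.11, adjusted p = 0.000591), and the propeptide protease Bmp1 (-0.29 ± 0.08, adjusted p = 0.0133; direct -0.07, dose 0.22). P4ha3 moved apart in the arms, with a Sec24B effect of 0.61 ± 0.07 and a triple effect of -0.28 ± 0.06. Without triple knockdown replicate 5 the number of higher members went from 0 to 1.

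Smooth muscle actin, Acta2, the classic marker of activated fibroblasts, read 25355, 26676.5, 27653 and 29526 with 50 nM scrambled siRNA and 30019, 27859, 29358, 27216 and 28178 in the Sec24B knockdown. It read 27764, 29474, 30495, 36571 and 33531 with 150 nM scrambled siRNA and 12481, 11326, 12919, 12599.8 and 14279 in the triple knockdown. No triple knockdown library reached the lowest library of the other groups (-1.37 ± 0.11, adjusted p = 5.19e-09). Of 16 contractile genes 3 were lower, the others being tropomyosin Tpm1 (-0.33 ± 0.07, adjusted p = 0.00285) and vinculin Vcl (-0.41 ± 0.13, adjusted p = 0.0317), whose call did not hold with each library left out. Without triple knockdown replicate 1, 5 were lower. Over all genes, with all libraries, 8.38% were called lower.

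TGF-beta ligands, receptors and targets were lower in 6 and higher in 2 of 15 (median -0.25). The receptors Tgfbr2 (-0.70 ± 0.10, adjusted p = 1.33e-05) and Tgfbr3 (-0.68 ± 0.13, adjusted p = 0.000428), the ligand Tgfb3 (-0.60 ± 0.08, adjusted p = 1.38e-05) and the target Tgfbi (-0.58 ± 0.08, adjusted p = 8.73e-06) were lower. The higher members, Skil (0.62 ± 0.13, adjusted p = 0.00167) and Smad7 (0.34 ± 0.09, adjusted p = 0.0152), are feedback inhibitors of the pathway. Both fell in the Sec24B knockdown (-0.93 and -0.30), and in the triple knockdown Skil fell less (-0.31) and Smad7 did not pass (0.03, adjusted p = 0.738).

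The interferon genes show most plainly what the dose correction does. Of 36 interferon-stimulated genes, 35 were lower in the triple than in the Sec24B knockdown when compared directly (median -1.17), and 35 were lower with 150 than with 50 nM scrambled siRNA (median -0.95). After the dose difference was subtracted 8 were lower and 0 higher, with a median of -0.13. Against their own controls, 21 rose in the Sec24B knockdown (median 0.46) and 16 in the triple knockdown (median 0.30). The count of lower genes depended on triple knockdown replicate 1, in which Mx1 and Cmpk2 were the highest of the 5: without it 16 were lower and 1 higher. Other single libraries moved the higher count from 0 to 1, these being 50 nM scrambled replicate 4, 150 nM scrambled replicate 3, and triple knockdown replicates 3 and 5.

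Mx1, an antiviral GTPase, read 84.8, 94.9, 89.6 and 88.6 with 50 nM scrambled siRNA and 161, 294, 283, 211 and 238 in the Sec24B knockdown. It read 29.8, 21.3, 16.5, 15.2 and 26.6 with 150 nM scrambled siRNA and 39.8, 16.3, 16.6, 19.6 and 19.5 in the triple knockdown. The last 2 groups overlapped almost fully, while the Sec24B knockdown lay above its control, so the difference of -1.37 ± 0.32 (adjusted p = 0.0037) came from the Sec24B arm (1.37 ± 0.23) and not the triple arm (-0.01 ± 0.22). Cmpk2, a mitochondrial nucleotide kinase, read 418, 414, 486.5 and 463 in the 50 nM control and 720.5, 943.5, 948.5, 849.7 and 757 in the Sec24B knockdown. It read 196, 231, 241, 184 and 238 in the 150 nM control and 332, 279, 281, 272 and 301 in the triple knockdown. Cmpk2 rose over its control in both arms, by 0.91 and 0.43, and less in the triple knockdown (-0.48 ± 0.13, adjusted p = 0.0133). Ddx60, a cofactor of RNA sensing (-0.95 ± 0.21, adjusted p = 0.00292), and Parp14, an ADP-ribosyltransferase (-0.46 ± 0.10, adjusted p = 0.00262), passed in the Sec24B arm alone.

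**Figure D4:**
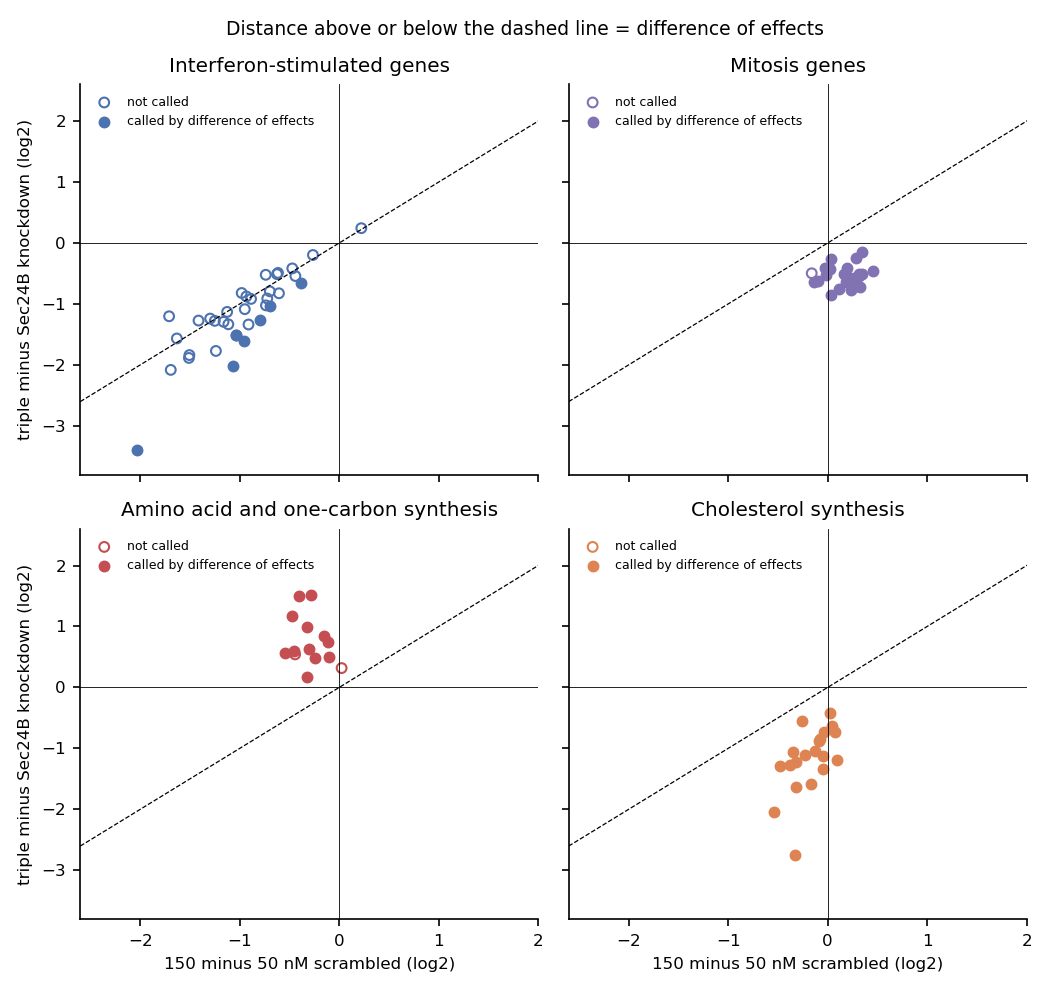
For members of 4 lists, the difference between scrambled doses (x axis, log2) is plotted against the direct difference between the knockdowns (y axis, log2); the vertical distance from the dashed line is the difference of effects, and filled points were called. Interferon-stimulated genes run along the line with 8 of 36 called, whereas the cholesterol genes and 23 of 24 mitosis genes are called below it and 12 of 14 amino acid synthesis genes above it.

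Sensors and signalling genes for double-stranded RNA were lower in 5 and higher in 0 of 15 (median -0.14). Among these were the RNA sensors Ifih1 (-0.50 ± 0.10, adjusted p = 0.00135) and Tlr3 (-0.59 ± 0.15, adjusted p = 0.00898), the kinase Ikbke (-0.50 ± 0.11, adjusted p = 0.00289), and Irf1, whose call did not hold with each library left out (-0.34 ± 0.11, adjusted p = 0.03). Ifih1, Tlr3 and Irf1 lay above their control in the Sec24B knockdown and overlapped it in the triple knockdown, whereas Ikbke lay below its control there.

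MHC class I and peptide loading genes were lower in 4 of 14 (median -0.35), against 13 in the direct comparison and 13 by scrambled dose. Without triple knockdown replicate 1, 7 were lower. Psmb9, a subunit of the immunoproteasome, read 54.3, 49.3, 48.7 and 74.4 with 50 nM scrambled siRNA and 199, 238, 232, 198 and 186 in the Sec24B knockdown. It read 24.0, 24.6, 24.2, 23.7 and 31.3 with 150 nM scrambled siRNA and 92.3, 48.9, 34.9, 38.3 and 46.6 in the triple knockdown. It rose over its control in both arms, with replicate 1 the highest of the triple knockdown, and rose less there (-0.97 ± 0.28, adjusted p = 0.0173). The peptide transporter Tap1 (-0.44 ± 0.13, adjusted p = 0.0185), its partner Tapbp (-0.52 ± 0.15, adjusted p = 0.019) and the transactivator Nlrc5 (-0.43 ± 0.11, adjusted p = 0.00946) were the other lower members. Tap1, Tapbp and Nlrc5 lay above their control in the Sec24B knockdown and overlapped it in the triple knockdown.

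Chemokines and NF-kB response genes were lower in 11 and higher in 1 of 21 (median -0.50). Without triple knockdown replicate 1 there were 2 higher, and without 50 nM scrambled replicate 1 there were 0. Cxcl1, a neutrophil attractant, read 1861, 1658, 1573 and 1555 in the 50 nM control and 1925.5, 1719, 1784, 1875.5 and 1781 in the Sec24B knockdown. It read 962, 1127, 1029, 917 and 911 in the 150 nM control and 783, 531, 539.9, 483 and 522.5 in the triple knockdown, where replicate 1 was the highest. The 150 nM control lay below the 50 nM control and the triple knockdown below both (-0.94 ± 0.14, adjusted p = 2.43e-05). The cytokine Lif (-0.67 ± 0.10, adjusted p = 5.54e-05) and the adhesion molecule Vcam1 (-0.47 ± 0.08, adjusted p = 0.0001) were lower. Vcam1 lay above its control in the Sec24B knockdown (2842 to 3045 against 2208 to 2526). In the triple knockdown it overlapped its control (1498 to 1781 against 1773 to 1907). Ccl2, a monocyte attractant, fell in both arms (-0.52 and -1.03) and by more in the triple knockdown (-0.51 ± 0.08, adjusted p = 0.000125). The higher member, Il11 (2.15 ± 0.64, adjusted p = 0.0211), did not hold with each library left out. Nor did some of the lower members, and 8 calls of this list held.

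Antioxidant targets of NRF2 were higher in 6 and lower in 1 of 15 (median 0.25). Heme oxygenase Hmox1 read 6078, 6290.3, 6276 and 6958 with 50 nM scrambled siRNA and 5691, 5458, 5296, 4942 and 5258 in the Sec24B knockdown. It read 5864, 6383, 6275, 5749 and 5699 with 150 nM scrambled siRNA and 17239, 12116, 12531, 12333 and 14722 in the triple knockdown. The Sec24B knockdown lay below its control and the triple knockdown far above its own, with replicate 1 the highest (1.45 ± 0.11, adjusted p = 2.9e-09). The glutathione synthesis subunit Gclm (0.77 ± 0.16, adjusted p = 0.00119), sulfiredoxin Srxn1 (0.60 ± 0.11, adjusted p = 0.000525) and Pgd of the pentose phosphate pathway (0.43 ± 0.08, adjusted p = 0.000471) were higher, and the glutathione transferase Gstm1 was lower (-0.51 ± 0.11, adjusted p = 0.00281). Gstm1 lay above its control in the Sec24B knockdown and overlapped it in the triple knockdown.

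Autophagy genes were higher in 4 and lower in 0 of 16 (median 0.14), beside 7.44% higher and 8.38% lower over all genes. The cargo adaptor Sqstm1, which also takes part in NRF2 control, read 30041 to 39122 in the triple knockdown and 12161 to 16185 in all other libraries (1.26 ± 0.11, adjusted p = 8.86e-09). Gabarapl1 (0.48 ± 0.07, adjusted p = 5.53e-05), Wipi2 (0.46 ± 0.07, adjusted p = 9.47e-05) and the adaptor Nbr1 (0.34 ± 0.08, adjusted p = 0.00367) had smaller differences. Of 25 lysosomal genes 2 were higher and 4 lower, the first near the 7.44% of all genes and the second beside 8.38%. The proton pump subunit Atp6v1h (0.57 ± 0.09, adjusted p = 5.16e-05) and the protease Ctsl (0.45 ± 0.09, adjusted p = 0.00144) were higher. The hydrolases Gusb (-0.37 ± 0.08, adjusted p = 0.00227; direct -0.01, dose 0.36), Ctsd (-0.42 ± 0.09, adjusted p = 0.003), Glb1 (-0.25 ± 0.07, adjusted p = 0.021) and Tpp1 (-0.23 ± 0.08, adjusted p = 0.0429) were lower, the last 2 not with each library left out. Ctsd and Tpp1 lay above their control in the Sec24B knockdown and overlapped it in the triple knockdown. Without triple knockdown replicates 1 and 5 the number of lower lysosomal genes was 10, and without 50 nM scrambled replicate 1 it was 2.

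Hypoxia targets were higher in 5 and lower in 0 of 13 (median 0.24), although their triple median was -0.09 and their Sec24B median -0.23. Ndrg1 (1.33 ± 0.15, adjusted p = 6.84e-07), a stress-responsive gene, and the growth factor Vegfa (0.92 ± 0.08, adjusted p = 1.52e-08) rose in the triple knockdown. Bnip3, a mitophagy receptor, fell in both arms and less in the triple knockdown (-0.72 and -0.26; 0.46 ± 0.11, adjusted p = 0.00566). Mxi1 (0.43 ± 0.11, adjusted p = 0.00652) and Bnip3l (0.26 ± 0.09, adjusted p = 0.0415, not held with each library left out) made up the rest. Glycolysis genes fell in both arms, 13 of 18 genes with the Sec24B knockdown and 12 with the triple knockdown, and the difference of effects passed in 1 higher and 3 lower, beside 15.8% of all genes in either direction. These were the hexokinase Hk2, which fell in the Sec24B knockdown (-0.52; difference 0.37 ± 0.09, adjusted p = 0.00506), and Hk1 (-0.45 ± 0.09, adjusted p = 0.000737), Pfkfb3 (-0.65 ± 0.14, adjusted p = 0.00243) and Pfkm (-0.28 ± 0.08, adjusted p = 0.0105).

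Among targets of p53, 1 was higher and 4 lower of 18, with a median of 0.01, beside 7.44% higher and 8.38% lower over all genes. The higher one, Gadd45a, a growth arrest gene also induced by ATF4, read 761, 738, 681 and 781 with 50 nM scrambled siRNA and 803, 743, 768, 766 and 797 in the Sec24B knockdown. It read 708.5, 848.5, 716, 596 and 676 with 150 nM scrambled siRNA and 3605, 2875, 2517, 2442 and 3206 in the triple knockdown. The triple knockdown lay within 2442 to 3605 and all others within 596 to 849 (1.97 ± 0.13, adjusted p = 2.31e-10). The lower ones were Sesn1 (-0.57 ± 0.11, adjusted p = 0.000809), the death receptors Fas (-0.65 ± 0.16, adjusted p = 0.0059) and Tnfrsf10b (-0.32 ± 0.07, adjusted p = 0.00232), and Ei24 (-0.28 ± 0.09, adjusted p = 0.0286), which did not hold with each library left out. Sesn1, Fas and Ei24 lay above their control in the Sec24B knockdown and overlapped it in the triple knockdown. Tnfrsf10b lay below its control in the triple knockdown. In the BCL2 family the death-promoting members Bcl2l11 (-0.85 ± 0.11, adjusted p = 7.68e-06), Bmf (-0.89 ± 0.17, adjusted p = 0.000809) and Bak1 (-0.36 ± 0.08, adjusted p = 0.0021) were lower and the survival gene Bcl2 higher (0.52 ± 0.15, adjusted p = 0.0178), of 13 tested and beside 15.8% called over all genes. Bcl2 lay below its control in the Sec24B knockdown and overlapped it in the triple knockdown. The Bcl2 call was lost without 50 nM scrambled replicate 3.

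Immediate early genes were higher in 3 and lower in 7 of 20 (median -0.29). The transcription factors Myc (0.84 ± 0.08, adjusted p = 7.8e-08) and Klf4 (0.85 ± 0.09, adjusted p = 1.76e-07) and Ier2 (0.74 ± 0.14, adjusted p = 0.000413) were higher. Klf2 was lower (-0.86 ± 0.13, adjusted p = 4.42e-05), with a direct difference of -0.08 and a dose difference of 0.79, so this call rests on the scrambled controls. Heat shock chaperones had 3 higher and 3 lower of 16 (median 0.02), beside 7.44% higher and 8.38% lower over all genes. The mitochondrial pair Hspd1 (0.61 ± 0.08, adjusted p = 1.06e-05) and Hspe1 (0.54 ± 0.14, adjusted p = 0.00666) and the cytosolic Hspa4 (0.26 ± 0.07, adjusted p = 0.0112) were higher. Hspa4 lay below its control in both arms, and by less in the triple knockdown. It read 6316 to 7002 there, against 7007 to 7405 in the 150 nM control. The inducible Hspa1a (-0.65 ± 0.20, adjusted p = 0.0277) and Hspa1b (-0.63 ± 0.17, adjusted p = 0.0104), near-identical genes whose reads may be split unreliably, and Bag3 (-0.25 ± 0.08, adjusted p = 0.0441) were lower. Only 1 of those lower calls was left without 50 nM scrambled replicate 1, without Sec24B knockdown replicate 4 or 5, or without 150 nM scrambled replicate 2 or 3.

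Golgi glycosylation enzymes were lower in 6 and higher in 1 of 21 (median -0.25). The sialyltransferase St3gal2 (-0.50 ± 0.08, adjusted p = 7.86e-05), the galactosyltransferase B4galt5 (-0.43 ± 0.07, adjusted p = 0.000217), the branching enzyme Mgat5 (-0.47 ± 0.11, adjusted p = 0.0054; direct -0.16, dose 0.31) and the heparan sulfate polymerase Ext2 (-0.26 ± 0.07, adjusted p = 0.0094) were lower, and St3gal4 was higher (0.30 ± 0.10, adjusted p = 0.0365). The St3gal4 call was lost when 50 nM scrambled replicate 1 or 2, Sec24B knockdown replicate 2, 3 or 5, or 150 nM scrambled replicate 2 or 4 was left out. Without 50 nM scrambled replicate 1 the number of lower enzymes was 4. Ext2 lay above its control in the Sec24B knockdown and overlapped it in the triple knockdown. Of 13 planar cell polarity genes, whose proteins include known SEC24B cargo, Ptk7 (-0.44 ± 0.09, adjusted p = 0.00112) and Vangl1 (-0.57 ± 0.12, adjusted p = 0.00184) were lower and Dvl2 higher (0.33 ± 0.09, adjusted p = 0.0148), beside 8.38% lower and 7.44% higher over all genes. Ptk7 and Vangl1 rose in the Sec24B knockdown (0.42 and 0.45) and did not pass in the triple knockdown. Dvl2 lay below its control in the Sec24B knockdown and overlapped it in the triple knockdown. Of 13 mitochondrially encoded mRNAs mt-Nd6 (1.17 ± 0.39, adjusted p = 0.0395) and mt-Nd3 (0.70 ± 0.23, adjusted p = 0.0421; direct 0.01, dose -0.69) were higher, beside 7.44% of all genes. Neither call held with each library left out, and mt-Nd6 lies opposite other mitochondrial genes, whose reads cannot be separated without strand.

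Named genes with the largest rises had low counts outside the triple knockdown. Ranking by log2 difference, with a mean of at least 50 needed in any 1 group, favours such genes. Car6 and Sh2d6 reached that mean only in the triple knockdown. Car6, a secreted carbonic anhydrase, read 6.52, 3.68, 1.57 and 1.18 with 50 nM scrambled siRNA and 6.15, 5.34, 1.71, 1.17 and 6.68 in the Sec24B knockdown. It read 1.92, 0, 1.10, 1.89 and 2.85 with 150 nM scrambled siRNA and 89.4, 57.6, 64.8, 58.9 and 74.5 in the triple knockdown, so the other groups rest on a few reads per library (4.60 ± 0.60, adjusted p = 6.59e-06). Next came Sh2d6, an SH2 domain protein (4.02 ± 0.45, adjusted p = 6.86e-07), the ATP-gated channel P2rx3 (2.95 ± 0.32, adjusted p = 4.84e-07), the ER calcium pump Atp2a3 (2.90 ± 0.35, adjusted p = 2.09e-06) and the secreted factor Angptl6 (2.75 ± 0.30, adjusted p = 4.25e-07). Cdsn, best known as an adhesion protein of skin, had higher counts: 807, 917, 872 and 879.8 in the 50 nM control and 1037, 1139, 1139.6, 1036 and 1082 in the Sec24B knockdown, then 649, 693, 686, 624 and 631 in the 150 nM control and 6207, 4063, 4349, 3943 and 4252 in the triple knockdown. The groups did not overlap, and triple knockdown replicate 1 was the highest library (2.45 ± 0.12, adjusted p = 1.56e-12).

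Some of the largest falls combined a rise in the Sec24B knockdown with a fall in the triple knockdown. P2rx7, another ATP-gated channel, read 75.0, 87.6, 84.9 and 73.2 in the 50 nM control and 161, 240.4, 223, 223 and 163 in the Sec24B knockdown. It read 55.8, 57.3, 47.4, 55.9 and 59.8 in the 150 nM control and 34.0, 34.8, 49.8, 52.1 and 32.2 in the triple knockdown. The Sec24B knockdown was clear of its control, and the triple knockdown overlapped its own (-1.77 ± 0.22, adjusted p = 2.91e-06). The matrix protein Spon2 (-1.76 ± 0.15, adjusted p = 1.79e-08), the phosphatase-like receptor Ptprv (-1.85 ± 0.26, adjusted p = 1.58e-05), Crocc2 (-1.84 ± 0.28, adjusted p = 4.35e-05) and the hypoxia factor gene Epas1 (-1.84 ± 0.37, adjusted p = 0.00103) also passed in both arms in opposite directions. The secreted lipase Lipg fell in the triple arm alone (-1.80 ± 0.19, adjusted p = 2.53e-07), and the potassium channel Kcnj2 fell in both (-1.57 ± 0.27, adjusted p = 0.000204). In the other direction Nupr1, a stress-induced chromatin protein (1.18 ± 0.17, adjusted p = 2.42e-05), and the noncoding RNA host gene Snhg6 (1.04 ± 0.17, adjusted p = 0.00013) rose in the triple knockdown and fell in the Sec24B knockdown.

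A group of genes changed in the Sec24B knockdown and did not pass in the triple knockdown, although Sec24b was lowered in both. Cdh26, a cadherin, read 201, 192, 222 and 228 with 50 nM scrambled siRNA and 459.9, 568.5, 513.5, 467 and 474 in the Sec24B knockdown. It read 171, 195, 149.8, 162 and 180.3 with 150 nM scrambled siRNA and 202, 135, 142, 155 and 137 in the triple knockdown. The Sec24B knockdown libraries lay above all others, and the triple knockdown overlapped its control (-1.40 ± 0.15, adjusted p = 3.66e-07). Pdzd2, a PDZ domain protein (-1.44 ± 0.23, adjusted p = 0.000109), and the secreted WNT modulator Sfrp2 (-1.33 ± 0.29, adjusted p = 0.00201) had the same pattern. In reverse, Guk1, a guanylate kinase, read 531, 539.5, 598 and 660.2 in the 50 nM control and 364, 307, 352, 282 and 298 in the Sec24B knockdown, and 594, 706, 664, 740 and 729 in the 150 nM control and 881, 511.5, 587, 605 and 754.5 in the triple knockdown. It fell in the Sec24B knockdown without overlap, and the triple knockdown spanned its control (0.80 ± 0.16, adjusted p = 0.00116). The iron exporter Slc40a1 (0.82 ± 0.21, adjusted p = 0.0078), Smim13 (0.68 ± 0.14, adjusted p = 0.00141) and the membrane protein Lhfpl2 (0.65 ± 0.09, adjusted p = 2.6e-05) fell likewise in the Sec24B arm alone. So did the actin-binding Coro6 (0.97 ± 0.25, adjusted p = 0.00763), although its Sec24B knockdown libraries overlapped their control (30.5 to 49.1 against 43.5 to 80.3).

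For some called genes the scrambled doses supplied most of the difference. Tnfaip8l1 read 19.6, 18.4, 22.8 and 15.3 with 50 nM scrambled siRNA and 52.9, 58.8, 52.0, 43.4 and 59.3 in the Sec24B knockdown. It read 46.1, 49.1, 43.0, 41.7 and 31.3 with 150 nM scrambled siRNA and 16.5, 33.7, 26.6, 25.5 and 33.9 in the triple knockdown. The controls themselves did not overlap (dose difference 1.11 ± 0.20), and the direct difference was -0.98 ± 0.19, which together gave -2.08 ± 0.28 (adjusted p = 8.03e-06). Ndnf, a secreted neuronal factor, read 213, 209, 268 and 201 in the 50 nM control and 71.3, 71.6, 66.5, 65.7 and 76.9 in the Sec24B knockdown, and 456, 370.2, 387, 479 and 494 in the 150 nM control and 40.8, 59.7, 66.4, 79.6 and 49.1 in the triple knockdown. It fell in both arms (-1.64 and -2.89), and the knockdown groups overlapped, so its difference of -1.25 ± 0.20 (adjusted p = 8.53e-05) rested on the controls (direct -0.28, adjusted p = 0.123). Stra6, the retinol transporter (-1.26 ± 0.21, adjusted p = 0.000102; dose 0.84, direct -0.43), and the kinase Dmpk (-1.17 ± 0.13, adjusted p = 7.1e-07; dose 0.69, direct -0.49) were of this kind among the lower genes. Zbtb7c (0.97 ± 0.18, adjusted p = 0.000399; dose -0.89, direct 0.08) and Harbi1 (1.05 ± 0.19, adjusted p = 0.000377; dose -0.59, direct 0.46) were among the higher ones. In all, the dose difference was larger in size than the direct one for 22 of the 183 named called genes. For 14 of these the direct difference did not pass: Bmp1, Vcl, Il11, Bnip3, Bnip3l, Gusb, Glb1, Tpp1, Mgat5, mt-Nd6, mt-Nd3, Ndnf, Klf2 and Zbtb7c. For Sar1b, Atf5, Slc7a5, Tpm1, Tnfaip8l1, Dmpk, Stra6 and Harbi1 it passed. Of the genes that passed in neither single effect, Nhp2 (0.52 ± 0.14, adjusted p = 0.0137) and Ruvbl2 (0.47 ± 0.13, adjusted p = 0.0124), both of RNA-protein particle assembly, were higher, and Clip4 (-1.23 ± 0.35, adjusted p = 0.0166) and Dync1i1 (-0.66 ± 0.19, adjusted p = 0.016), both microtubule proteins, were lower.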

How the data were processed

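RNA was sequenced in 19 libraries after TRIzol extraction and cDNA synthesis. The submitters' processing notes list TopHat2 2.0.8, Trimmomatic 0.27, Partek 6.6 and FastQC 0.10.1 with no order, and name human builds (GRCh37, hg19). GENCODE M21 of the mouse held 19685 of the 19716 gene IDs, 99.1% with the same start and end, so coordinates are given in GRCm38. The read counter, the scaling method, strandedness and the treatment of multiply mapped reads are not given in the sources used here, so near-identical or overlapping genes are uncertain.

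The deposited signal values are counts of reads, each library scaled by 1 factor and given to 2 decimals. Whole reads were recovered for 100% of values within 0.007 normalised counts. The log2 fold changes and p-values deposited by the authors in the same table were not used, and 0 per-sample columns were left out. Reads carry no molecular identifiers, so precision from depth covers counting error only. No pair of libraries agreed within sampling noise.

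Groups came from the labels. Because the values are scaled counts, limma 3.58.1 in R 4.3.3 was fitted, with its variance trend on intensity, to log2 of the value plus 1, with 4 group means over all 19 libraries and the difference of effects as a contrast. The 19635 genes that reached 1 in 4 or more libraries were kept. The pseudocount makes changes of genes with few counts smaller. The Benjamini-Hochberg method adjusted the two-sided p-values over all genes, at 0.05. The fit was tested on simulated data. A call is said to hold when it passed with each of the 19 libraries left out.

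The comparison, the gene lists and the tests were chosen with earlier results of these data known. Named genes were the SEC24 genes; the 12 largest per direction that passed, held, had a mean of at least 50 in a group and are not clone names, and up to 5 per direction in each class; up to 4 called members of each list; and all members behind counts of up to 5. Some that this rule picks are not reported here. Alternatives covered pseudocount, filter, scaling, variance trend, array weights, a replicate block, equal group sizes, libraries left out, and edgeR 4.0.16, DESeq2 1.42.0 and limma-voom on the recovered reads. Leaving out triple knockdown libraries 1 and 5 was chosen after seeing the data. Tables were handled in Python 3.11.15 with pandas 2.3.3 and numpy 2.4.6, and figures drawn with matplotlib 3.10.9.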

Additional observations from a re-analysis of the deposited data

Results flagged for a closer look

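Within a group of 4 or 5 libraries, the gap between the most extreme library and its nearest neighbour was divided by the range of the group, for 44 of the named genes. Of 176 such checks 15 exceeded the 95% critical value, where chance gives about 1 in 20, and 10 of the 15 were triple knockdown replicate 1. That library was the highest of its group for Hspa5 (gap 0.850 of the range, 18612 against 12062 to 13043), Cdsn (0.821, 6207 against 3943 to 4349), Ndrg1 (0.738, 3055 against 1789 to 2120), Cxcl1 (0.811, 783 against 483 to 540), Mx1 (0.857, 39.8 against 16.3 to 19.6) and Psmb9 (0.756, 92.3 against 34.9 to 48.9). It was also the highest for Col6a1 (0.858, 3813 against 3426 to 3481) and Col6a2 (0.710, 1618 against 1284 to 1380). It was the lowest for Rrm2 (0.917, 2045 against 2410 to 2443) and Thbs2 (0.748, 438 against 611 to 670).

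The other 5 were spread over the remaining groups. Psmb9 was highest in 150 nM scrambled replicate 5 (0.885, 31.3 against 23.7 to 24.6) and Cdc20 in 150 nM scrambled replicate 2 (0.917, 2673 against 2302 to 2333). Col3a1 was highest in 50 nM scrambled replicate 1 (0.865, 7513 against 6637 to 6755). In the Sec24B knockdown Hmgcs1 was highest in replicate 5 (0.749, 2676 against 2292 to 2388) and Dmpk lowest in replicate 2 (0.733, 357 against 378 to 385).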

How the results depend on the processing

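The count of genes with a difference of effects was 3107, and with each library left out in turn it ranged from 2587 to 3516, with 1183 to 1658 higher and 1404 to 1858 lower. The same exercise gave 6013 to 6800 genes for the triple effect, 2138 to 3760 for the Sec24B effect, 902 to 2684 for the scrambled doses and 5539 to 6393 for the direct difference. Array weights, which gave triple knockdown replicate 1 a weight of 0.16, gave 4677 genes, 2231 of them higher, with 7019 for the triple effect, 5232 for the Sec24B effect, 4582 for the doses and 7068 for the direct difference. With replicates 1 to 4 of each group 2406 genes passed, 5477 for the triple effect and 4816 for the direct difference. Leaving out triple knockdown libraries 1 and 5, a choice made after seeing the data, gave 3897 genes, 1852 higher and 2045 lower. The Sec24B effect then passed in 4266 genes and the dose difference in 3331. Replicate numbers did not pair the libraries as a whole: deviations of same-numbered libraries correlated between -0.31 and 0.48 over 27 pairs. The median was 0.00, and 6 exceeded 0.1. The 0.48 was between replicate 1 of the Sec24B knockdown and replicate 1 of the triple knockdown, and what they shared was not tested. With the replicate block 3108 genes passed (1450 higher, 1658 lower), of which 2898 were called in the fit without it. On recovered reads edgeR called 3315, DESeq2 3457 and limma-voom 3304 genes. Upper-quartile scaling gave 1328 higher and 1759 lower. Of 3515 values of named genes with 1 library left out 3399 kept direction and side of the threshold, 114 lost the call and 2 reversed. Of 2586 under other alternatives the numbers were 2542, 40 and 4. All 6 reversals concerned genes that had not passed: Sec24b became 0.12 with array weights, 0.14 without triple knockdown libraries 1 and 5 and 0.04 without triple knockdown replicate 1 (from -0.14 to 0.04 over libraries left out), and Sec24d became 0.05, 0.12 and 0.06 (-0.27 to 0.06). The causes were not tested. The median SE was 0.188 over all genes and 0.125 for genes with a mean of at least 50 in a group, which limits what could be detected at this depth and number of libraries.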
